A study of Mus musculus with 9 samples.

Results

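The amelogenesis imperfecta genes described here are 8 genes that act in or around the enamel-forming epithelium but do not encode its extracellular matrix: Fam20a, Fam20c, Calb1, Wdr72, Ltbp3, Relt, Fam83h and Cnnm4. They were chosen by gene symbol, and each was measured by 1 transcript cluster, a set of probes for 1 locus, so that they made up 8 of the 39601 clusters that carried a gene symbol on the array. The array was a whole-transcript microarray, and total RNA of 3 groups of mouse cells was measured on 3 arrays per group. The mESC group was purchased mouse embryonic stem cells in culture. The embryo group was living (AAD-) GFP+ cells sorted from dissected incisors of Sox2-GFP+ embryos at E14.5, labelled as incisor epithelium, and the adult group was the same kind of sort from the dissected labial cervical loop (P30, Sox2-GFP+ mice). The 2 dental groups therefore shared the Sox2-GFP reporter and the sort, which the mESC group did not, and each dental sample pooled several individuals. The sample titles name biological replicates in each group. Whether the 3 mESC samples came from separate cultures is not stated. P-values that use their spread therefore measure the variation between these samples, which may be technical.

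Amelogenesis imperfecta is an inherited failure of enamel formation. Enamel is laid down by ameloblasts, epithelial cells that first secrete a protein matrix and later, in the maturation stage, take it up again while they move calcium and other ions into the hardening mineral. In the mouse incisor, which grows throughout life, ameloblasts are renewed from epithelial stem cells in the labial cervical loop. Variants in human FAM20A, WDR72, LTBP3, RELT, FAM83H and CNNM4 are known causes of enamel disease, and loss of FAM20C gives a bone disease with enamel defects. Calb1 encodes calbindin D28k, a calcium buffer abundant in ameloblasts, and was included for that role rather than as an established disease gene.

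Values are the deposited log2 signals, on which a difference of 1 means a doubling of the linear signal. The group means are followed by the SD over 3 arrays, and differences by the SE of a limma fit over all 9 arrays. A gene was called where the Benjamini-Hochberg adjusted p of that fit was under 0.05 and the log2 difference was at least 1 in size. The median of the 5222 negative-control probe sets was 4.81, and a signal below it gives no reliable level. Signals of different genes come from different probes and are not compared. The arrays cannot tell fewer cells of a type from less RNA per cell.

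Between embryonic and adult dental cells, 4 of the 8 genes were called, all lower in the embryo: Calb1, Fam20a, Ltbp3 and Fam20c. Across all clusters, 2.83% were called lower in the embryo and 6.42% in either direction. A cut of 8.55 was set at the 90th percentile of the highest group means of the negative controls. Among the 8821 clusters whose highest group mean was above it, 1755 were called in either direction. Of the 8 genes, only Calb1 and Ltbp3 were among these, through their adult means. Shares of all clusters, here and below, include the clusters under this cut. The arrays of the 2 groups did not overlap for 5 of the 8 genes, all lower in the embryo, against 10.4% of all clusters that were lower without overlap and 27.8% without overlap in either direction. The median difference of the 8 genes was -1.1, against 0.01 over all clusters. Fam83h and Cnnm4 differed by less than 0.1 between the dental groups, and Wdr72 lay below the negative-control median in every group. The plot of signals by array shows the values of all 9 arrays.

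**Figure D1:**
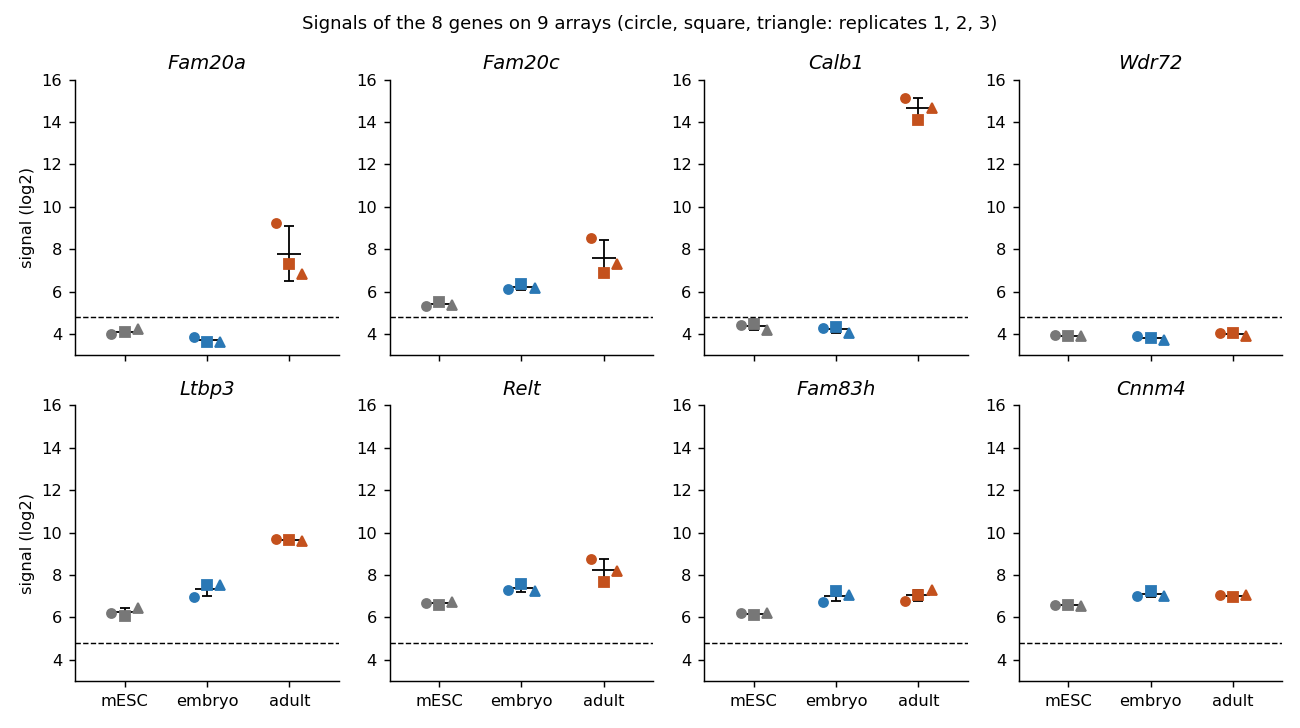
Log2 signal of each of the 8 genes on the 9 arrays, with 1 panel per gene and the 3 groups along the horizontal axis. Circles, squares and triangles are replicates 1, 2 and 3, black bars are means ± SD over 3 arrays, and the dashed line is the negative-control median of 4.81. Calb1 lay between 14.11 and 15.14 on the adult arrays and below the dashed line on the other arrays, and Wdr72 lay below the line on all 9.

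Upstream sequence was matched by symbol in RefSeq (GRCm38.p6) for 5 of the 8 genes, Fam20a, Fam20c, Relt, Ltbp3 and Cnnm4. The 250 bases before the annotated start are shown for the 3 of these genes that were called lower in the embryo and for Cnnm4, which was not called in any comparison, so that the base composition of both kinds can be read together. Capitals mark GGGCGG, the core of the GC box bound by SP-family factors, read on the strand of the gene. The intervals are chr11:109722239-109722488 on the minus strand for Fam20a, chr5:138754831-138755080 on the plus strand for Fam20c, chr19:5740650-5740899 on the plus strand for Ltbp3 and chr1:36471347-36471596 on the plus strand for Cnnm4.
Fam20a: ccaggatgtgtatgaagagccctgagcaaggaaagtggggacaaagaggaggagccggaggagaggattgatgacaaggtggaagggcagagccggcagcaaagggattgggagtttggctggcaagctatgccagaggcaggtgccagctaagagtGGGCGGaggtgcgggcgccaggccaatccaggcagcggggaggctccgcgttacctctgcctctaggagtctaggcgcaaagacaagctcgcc
Fam20c: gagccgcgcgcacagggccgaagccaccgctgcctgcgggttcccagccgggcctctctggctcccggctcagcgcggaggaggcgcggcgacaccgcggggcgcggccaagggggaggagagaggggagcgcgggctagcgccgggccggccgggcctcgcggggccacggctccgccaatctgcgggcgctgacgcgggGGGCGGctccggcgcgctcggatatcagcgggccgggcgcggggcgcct
Ltbp3: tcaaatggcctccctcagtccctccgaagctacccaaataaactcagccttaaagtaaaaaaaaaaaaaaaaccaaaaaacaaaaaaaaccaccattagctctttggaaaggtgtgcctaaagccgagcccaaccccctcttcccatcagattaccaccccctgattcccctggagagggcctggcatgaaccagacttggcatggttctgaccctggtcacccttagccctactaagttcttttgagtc
Cnnm4: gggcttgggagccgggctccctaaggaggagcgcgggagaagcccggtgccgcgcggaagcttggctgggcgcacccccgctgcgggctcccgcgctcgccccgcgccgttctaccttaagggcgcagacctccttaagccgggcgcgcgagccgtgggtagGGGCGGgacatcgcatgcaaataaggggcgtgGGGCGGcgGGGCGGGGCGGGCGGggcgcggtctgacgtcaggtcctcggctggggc

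Over the window from 250 bases before to 50 bases after the start, the 5 promoters differed widely in CpG content, measured as the ratio of observed to expected CpG dinucleotides. The ratio was 0.98 for Fam20c and 1.01 for Cnnm4, with 80.7% and 76.3% G or C, and it was above that of 92.8% and 94.4% of the 32851 promoters examined. Relt had a ratio of 0.86 and Fam20a of 0.47, against a median of 0.38 over all promoters. Ltbp3 had the lowest of the 5, 0.19, with 48.0% G or C. GGGCGG was searched on both strands, as were the TATA box TATAAA, the RUNX motif TGTGGT, the homeodomain motif TAATTA, the TCF and LEF motif CTTTGA and the E-box CACGTG. The GC box occurred once in Fam20a, Fam20c and Relt and at 5 positions, some overlapping, in Cnnm4, and 35.7% of all promoters held it. None of the other motifs, held by 5.29% (TAATTA) to 16.8% (TGTGGT) of promoters, was found in the 5 windows, and Ltbp3 held none of the 6. The 3 genes called lower in the embryo that had a promoter here thus did not share 1 composition, and Calb1, also called, had none to compare. Fam20c, which was called, was closer in CpG ratio to Cnnm4, which was not. The call of Fam20c was lost in 15 of 22 alternatives.

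Fam20c encodes the Golgi kinase that phosphorylates most secreted phosphoproteins, enamel matrix proteins among them, and Fam20a encodes a pseudokinase that binds FAM20C and raises its activity. The Fam20a cluster lies on chromosome 11 from 109669749 to 109722279 on the minus strand and spans the gene. No source used here names the genome build of the deposited coordinates, but each of the 8 clusters overlapped its RefSeq gene on GRCm38.p6. Fam20a signals were 3.98, 4.09 and 4.24 in mESC replicates 1 to 3, 3.84, 3.62 and 3.62 in the embryo, and 9.26, 7.31 and 6.81 in the adult. All mESC and embryo arrays lay below the negative-control median and all adult arrays above it. The means were 4.1 ± 0.13, 3.69 ± 0.13 and 7.79 ± 1.29 in mESC, embryo and adult, so that the embryo was lower than the adult by a log2 difference of -4.1 ± 0.55 (limma adjusted p = 0.00196). The day of an array was read from a digit string, as described below. On the day read as the first, 1 embryo array and 2 adult arrays gave a difference of -4.66. On the other day, 2 embryo arrays and 1 adult array gave -3.08. For this gene and those below, each difference within a day thus has a single array on one side, and the spread of that side is not known.

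Fam20c lies on chromosome 5 from 138754514 to 138810077 on the plus strand. Its signals were 5.33, 5.5 and 5.35 in mESC, 6.11, 6.34 and 6.18 in the embryo, and 8.54, 6.89 and 7.31 in the adult. No arrays of different groups overlapped, and the order was mESC, embryo, adult. The means were 5.39 ± 0.09, 6.21 ± 0.12 and 7.58 ± 0.86, and the embryo minus adult difference was -1.37 ± 0.36 (limma adjusted p = 0.04). This call was lost when any 1 array other than adult replicate 2 was left out. Without adult replicate 1 the difference was -0.89, which missed only the size threshold (limma adjusted p = 0.00649). The other losses were on the test, with limma adjusted p of 0.0629 to 0.109. Within days it was -1.38 (the first) and -1.16 (the second). Fam20b, the third family member and a xylose kinase of proteoglycan synthesis, had means of 8.26 ± 0.23 in mESC, 10.26 ± 0.36 in the embryo and 10.43 ± 0.32 in the adult. Its 2 dental groups differed by -0.18 ± 0.23 (limma adjusted p = 0.725), and both were called higher than mESC.

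Of 10 kinases of the secretory pathway other than Fam20a and Fam20c, Fam20b among them, 2 were called lower in the embryo, 1 without adult replicate 1 or with median centring, and none higher. These were Pkdcc, a secreted tyrosine kinase of skeletal development (-1.71 ± 0.11, limma adjusted p = 7.44e-05), and Dipk1a (-1.06 ± 0.2, limma adjusted p = 0.00845), whose call was lost without adult replicate 1 or embryo replicate 1. Of 11 known substrates of FAM20C in mineralised tissue, 6 were called lower in the embryo, 7 without adult replicate 1, and none higher. Among the lower ones were the enamel matrix genes Amelx (-13.04 ± 0.73), Ambn (-12.66 ± 0.72) and Enam (-11.02 ± 0.54), and Dspp (-6.44 ± 0.52), the dentin matrix gene, with limma adjusted p of 0.000213 or less. Dspp read 3.81 to 3.96 in the embryo, below the negative-control median, so that its difference can understate the change. The median difference of the 11 was -4.76, and -3.24 without adult replicate 1.

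Calb1 showed the widest range of the 8 genes. It lies on chromosome 4 from 15881264 to 15908064 on the plus strand. Signals were 4.43, 4.45 and 4.18 in mESC, 4.28, 4.33 and 4.03 in the embryo, and 15.14, 14.11 and 14.68 in the adult. Every mESC and embryo array was below the negative-control median, and the adult mean of 14.64 ± 0.52 was above 99.4% of the negative controls. The embryo mean of 4.21 ± 0.16 gave a difference of -10.43 ± 0.24 (limma adjusted p = 6.86e-07), with -10.3 on the first day and -10.52 on the second. Because the embryo lay at background, this difference can understate the change. The adult mean stood 9.83 above the negative-control median.

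Other genes of calcium handling differed less. Of 20 further genes measured, 5 were called lower in the embryo, 4 without adult replicate 1, and none higher. The median was -0.43, and -0.26 without adult replicate 1. The 5 were Itpr1, an inositol trisphosphate receptor that releases stored calcium (-3.71 ± 0.49, limma adjusted p = 0.00184), Stim1, the sensor of store-operated calcium entry (-1.48 ± 0.23, 0.00383), Vdr, the vitamin D receptor (-1.47 ± 0.23, 0.00379), Atp2b1, a plasma membrane calcium pump (-1.34 ± 0.37, 0.0444), and Trpm7, a channel kinase that passes calcium and magnesium (-1.19 ± 0.22, 0.00814). Stim1 variants are also a known cause of enamel disease in humans. The call of Trpm7 was lost without adult replicate 1, and that of Atp2b1 on leaving out any 1 array other than adult replicates 2 and 3.

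Wdr72 encodes a WD-repeat protein needed for vesicle traffic and endocytosis in maturation-stage ameloblasts. It lies on chromosome 9 from 74110334 to 74283308 on the plus strand. Signals were 3.94, 3.9 and 3.9 in mESC, 3.9, 3.81 and 3.72 in the embryo, and 4.04, 4.07 and 3.9 in the adult. All 9 were below the negative-control median, and 24.3% to 31.3% of negative controls lay below the group means. None of the 3 comparisons passed the test, with differences of -0.19 ± 0.07 for embryo minus adult (limma adjusted p = 0.111), -0.1 for embryo minus mESC (0.309) and 0.09 for adult minus mESC (0.361). These arrays therefore gave no reliable level of Wdr72 in any group.

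Among 24 genes of WDR72 partners and of the V-ATPase, the proton pump of endosomes and of the maturation-stage ruffled border, 3 were called lower in the embryo than in the adult, 4 without adult replicate 1, 6 under quantile normalisation, and none higher. The 3 were Atp6v0a1 (-1.86 ± 0.23), Atp6ap1 (-1.5 ± 0.19) and Atp6ap2 (-1.18 ± 0.19), with limma adjusted p of 0.00467 or less, and the call of Atp6ap2 was lost without embryo replicate 2. The list median was -0.23, and -0.41 under quantile normalisation. Of 16 maturation-stage ameloblast genes, 5 were called lower in the embryo and 1 higher, with a median of -0.76, and of -0.42 without adult replicate 1. Leaving out 1 array at a time gave 4 to 6 lower. The lower ones included the phosphate transporter Slc34a2 (-4.97 ± 0.87, limma adjusted p = 0.0068, with an embryo mean of 4.61, below the negative-control median), the phosphatase gene Alpl (-2.83 ± 0.37, 0.00182), the lysosomal membrane gene Lamp1 (-1.8 ± 0.17, 0.000395) and the bicarbonate transporter Slc4a4 (-1.51 ± 0.42, 0.0475). The call of Slc4a4 was lost on leaving out any 1 array other than adult replicate 1. The higher one, named after its values were seen, was the transferrin receptor gene Tfrc (1.43, limma adjusted p = 0.002).

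Ltbp3 encodes a secreted protein that holds TGF-beta in latent form in the extracellular matrix. It lies on chromosome 19 from 5740904 to 5758532 on the plus strand. Signals were 6.22, 6.06 and 6.44 in mESC, 6.98, 7.55 and 7.55 in the embryo, and 9.7, 9.66 and 9.59 in the adult. The groups were fully separated in the order mESC, embryo, adult, with the adult arrays between 9.59 and 9.7. The means were 6.24 ± 0.19, 7.36 ± 0.33 and 9.65 ± 0.06, with an embryo minus adult difference of -2.29 ± 0.17 (limma adjusted p = 0.000137). The difference was -2.13 on the first day and -2.33 on the second. Ltbp3 was the only one of the 8 genes called in all 3 comparisons.

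Each of the other latent TGF-beta binding proteins was measured as well, and no difference between these genes was tested. Ltbp1 had means of 7.03 ± 0.1 in mESC, 8.51 ± 0.47 in the embryo and 6.88 ± 0.16 in the adult, and was higher in the embryo than in the adult by 1.63 ± 0.21 (limma adjusted p = 0.00188). Ltbp2 had means of 7.19 ± 0.54, 5.78 ± 0.07 and 8.22 ± 1.03 and was lower in the embryo than in the adult by a difference of -2.44 ± 0.49 (limma adjusted p = 0.0122). Ltbp4, with means of 8.59 ± 0.14, 8.65 ± 0.08 and 9.23 ± 0.14, passed the test in the same direction as Ltbp3 at -0.58 ± 0.1 (limma adjusted p = 0.00522), under the size threshold. Of 17 other genes of the LTBP family and of TGF-beta activation, 6 were called lower in the embryo and 1, Ltbp1, higher, with a median of -0.88. The lower ones included the ligand Tgfb3 (-4.9 ± 0.56), Itgb6, a subunit of an integrin that activates latent TGF-beta (-4.76 ± 0.15), the receptor Tgfbr2 (-4.65 ± 0.23) and the co-receptor Tgfbr3 (-2.54 ± 0.32), with limma adjusted p of 0.00157 or less.

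Relt encodes a receptor of the tumour necrosis factor receptor superfamily. It lies on chromosome 7 from 100845848 to 100863446 on the minus strand. Signals were 6.69, 6.57 and 6.71 in mESC, 7.31, 7.57 and 7.25 in the embryo, and 8.77, 7.66 and 8.21 in the adult. No arrays of different groups overlapped. The embryo mean of 7.38 ± 0.17 and the adult mean of 8.21 ± 0.56 differed by -0.84 ± 0.25, which missed the test (limma adjusted p = 0.0597), and by -0.64 and -0.93 within the 2 days. Without adult replicate 2 the difference was -1.11 and was called. The homologues Rell1 and Rell2 differed by -0.19 ± 0.1 and -0.05 ± 0.07 (limma adjusted p = 0.308 and 0.729), and limma called none of the 10 other genes of the RELT family and the WNK, SPAK and OSR1 kinases between the dental groups, although 3 had an unadjusted p under 0.05, all higher in the embryo.

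Fam83h encodes a protein that binds casein kinase 1 and organises keratin filaments. It lies on chromosome 15 from 76001092 to 76014336 on the minus strand. Signals were 6.2, 6.1 and 6.22 in mESC, 6.73, 7.22 and 7.06 in the embryo, and 6.75, 7.06 and 7.29 in the adult. The dental groups overlapped, with means of 7.0 ± 0.25 and 7.03 ± 0.27 and a difference of -0.03 ± 0.16 (limma adjusted p = 0.952), whose sign turned with the day and with the array left out. Both lay above all mESC arrays. Of the 13 other genes of the FAM83 family, casein kinase 1 and the enamel keratins, 2 were called higher in the embryo and 1 lower. These were Fam83d, a spindle protein (1.33 ± 0.37, limma adjusted p = 0.0456), Krt17, an epithelial keratin (1.21 ± 0.25, 0.014), and Fam83g (-1.01 ± 0.17, 0.00515). All 3 calls were lost without adult replicate 1, that of Fam83g also without embryo replicate 1, that of Krt17 without embryo replicate 3 and that of Fam83d without any 1 array other than adult replicate 3 and embryo replicate 1. Over the arrays left out in turn, 0 to 3 genes of this list were called higher and 0 to 1 lower. Under quantile normalisation limma called none, and the list median was 0.13 against 0.35.

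Cnnm4 encodes a membrane protein of magnesium transport whose human variants cause a cone-rod dystrophy with enamel defects (Jalili syndrome). It lies on chromosome 1 from 36471597 to 36508776 on the plus strand. Signals were 6.58, 6.59 and 6.55 in mESC, 6.99, 7.26 and 7.02 in the embryo, and 7.06, 6.94 and 7.06 in the adult. The dental groups overlapped, with means of 7.09 ± 0.15 and 7.02 ± 0.07 and a difference of 0.07 ± 0.08 (limma adjusted p = 0.689). Cnnm1 and Cnnm3 also differed by less than 0.1 between the dental groups, and Cnnm2 by -1.21 ± 0.38 (limma adjusted p = 0.0769). Of 15 other genes of the CNNM family, the PRL phosphatases and magnesium transport, 2 were called lower in the embryo, Trpm7, given above, and the transporter Slc41a2 (-1.35 ± 0.26, limma adjusted p = 0.0106). The count was 1 without adult replicate 1 and 3 without adult replicate 3.

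**Figure D2:**
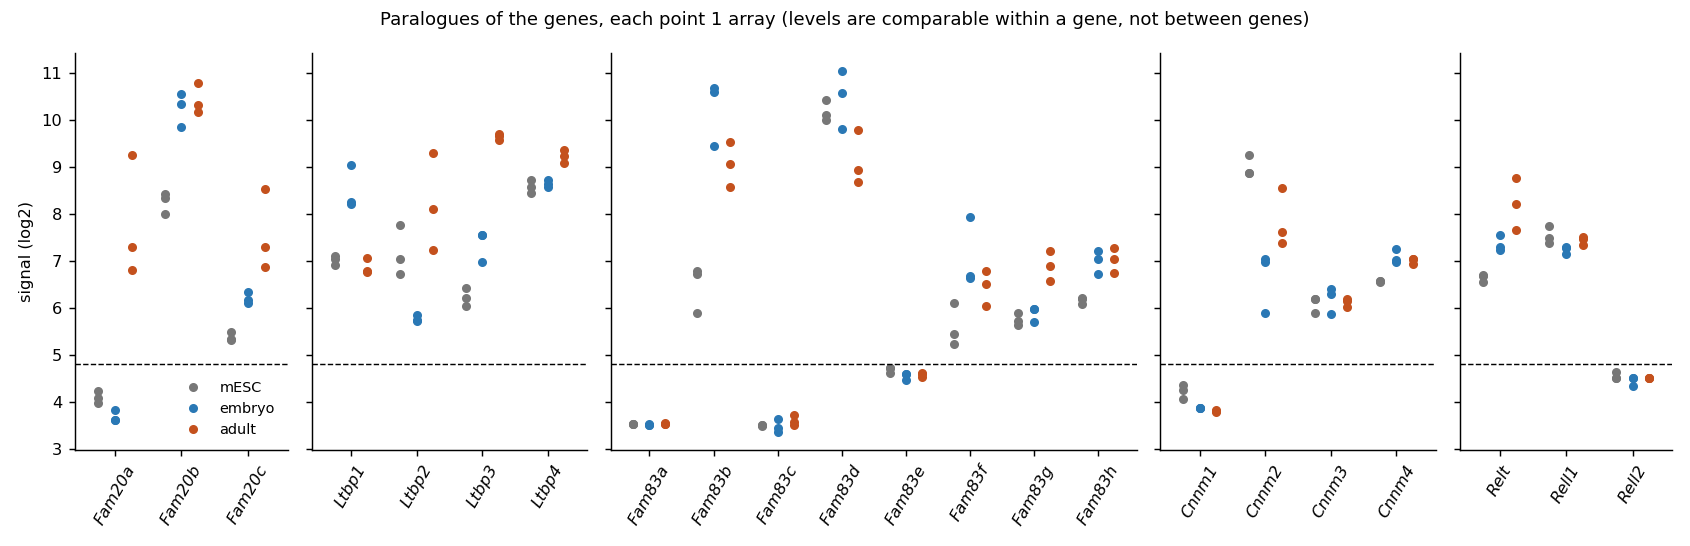
Log2 signal of the FAM20, LTBP, FAM83, CNNM and RELT family members on every array, with 1 point per array, grey for mESC, blue for embryo and orange for adult, and the dashed line at the negative-control median of 4.81. Levels can be compared within a gene only. Ltbp1 was higher in the embryo than in the adult while Ltbp2 and Ltbp3 were lower, and Fam20b was not called between the dental groups while Fam20a and Fam20c were lower in the embryo.

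Against mESC, 1 of the 8 genes was called in embryonic dental cells, Ltbp3, which was higher by 1.12 ± 0.17 (limma adjusted p = 0.00174). Across all clusters, 11.0% were called in this comparison and 4.9% were called higher. Among the 8821 clusters with a highest group mean above 8.55, 2719 were called. Ltbp3 was among these only through its adult mean. Fam83h (0.83 ± 0.16, limma adjusted p = 0.0066) and Cnnm4 (0.52 ± 0.08, 0.00229) passed the test but not the size threshold, so that 3 of the 8 passed the test whatever the size, against 27.7% of all clusters. Fam20c (0.82 ± 0.36, limma adjusted p = 0.14) and Relt (0.72 ± 0.25, 0.0663) did not pass, although none of their embryo arrays overlapped an mESC array. The arrays did not overlap for 6 of the 8 genes, against 42.0% of all clusters. For 1 of the 6, Fam20a, the embryo was the lower group, with all arrays of both groups at background. In a fit of the embryo and mESC arrays alone, which leaves out the spread of the adult arrays, limma gave adjusted p of 0.00164 for Fam20c and 0.00469 for Relt, both higher in the embryo, and 0.0311 for Fam20a, lower at -0.41 with all arrays below the negative-control median. Calb1 differed by -0.14 ± 0.24 (limma adjusted p = 0.705) and Fam20a by -0.41 ± 0.55 (0.62), both below the negative-control median on either side. The median difference of the 8 genes was 0.62, against -0.07 over all clusters.

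In adult dental cells, 5 of the 8 genes were called higher than in mESC and none lower, against 17.2% of all clusters called and 6.87% called higher. They were Calb1 (10.29 ± 0.24, limma adjusted p = 9.01e-08), Fam20a (3.69 ± 0.55, 0.00113), Ltbp3 (3.41 ± 0.17, 3.61e-06), Fam20c (2.19 ± 0.36, 0.00214) and Relt (1.56 ± 0.25, 0.00166). Fam83h (0.86 ± 0.16, limma adjusted p = 0.00394) and Cnnm4 (0.45 ± 0.08, 0.00326) passed the test under the size threshold, and Fam83h was called without adult replicate 1, at 1.0. In all, 7 of the 8 genes passed the test whatever the size, against 36.4% of all clusters, and the arrays did not overlap for 7, against 47.5%. The median difference was 1.87, against -0.07 over all clusters. Among the 8821 clusters with a highest group mean above 8.55, 4285 were called in this comparison. All mESC arrays carried the digit string read as the second day, which held only 1 adult array. Within that day the 5 differences were 10.33 for Calb1, 2.71 for Fam20a, 3.35 for Ltbp3, 1.92 for Fam20c and 1.55 for Relt. The 3 comparisons share samples, so their values are given side by side and not as independent results.

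**Figure D3:**
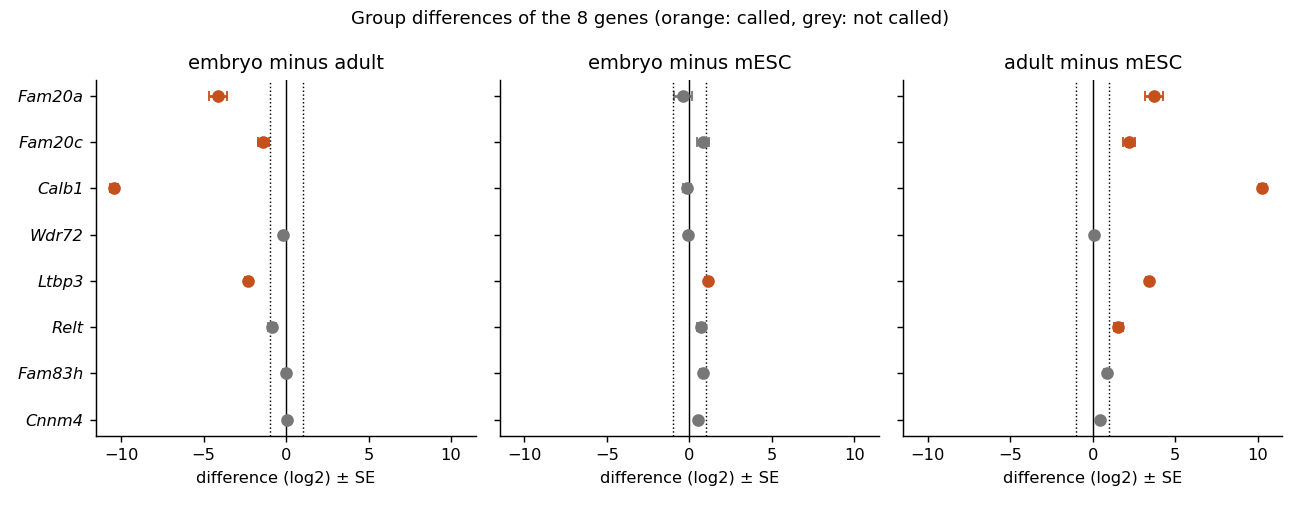
Log2 differences of the 8 genes in the 3 comparisons, with the difference on the horizontal axis and bars of ± SE of the limma fit over 9 arrays. Orange points were called, grey points were not, and dotted lines mark a difference of 1 in either direction. Called genes lie to the left in the embryo minus adult panel and to the right in the panels against mESC.

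The spread among the adult arrays was uneven. Adult replicate 1 was the highest adult array for 6 of the 8 genes, all but Wdr72 and Fam83h, although for Cnnm4 it read 7.06 as did replicate 3. It was highest for 40.8% of all clusters, and for 60.8% of the 1122 clusters called lower in the embryo. It stood above the mean of the other 2 adult arrays by 2.2 for Fam20a, 1.44 for Fam20c, 0.83 for Relt and 0.75 for Calb1. Its deviation from the group mean over all clusters had an SD of 0.264, against 0.151 to 0.202 on the other 8 arrays. Without it the embryo minus adult difference was -3.37 for Fam20a and -0.56 for Relt.

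Markers of some other cells moved with this array, and others did not. The mean log2 signal of 12 osteoblast and odontoblast markers was 8.87, 7.12 and 6.98 on adult replicates 1 to 3, against 4.68 to 4.88 in the embryo and 5.31 to 5.36 in mESC. For 13 markers of dental and jaw mesenchyme it was 11.1, 9.55 and 9.16 in the adult and 7.09 to 8.39 in the embryo, and adult replicate 1 was the highest adult array for all 13. For 12 dental epithelium markers it was lower on adult replicate 1, at 10.66, than on replicates 2 and 3, at 11.6 and 11.53, and it was 11.68 to 12.26 in the embryo. Sox2, the gene behind the sort, read 8.75, 10.49 and 10.26 in the adult, 11.68, 12.24 and 11.66 in the embryo and 14.31, 14.18 and 13.99 in mESC. The mean of 14 macrophage and leukocyte markers did not follow adult replicate 1, at 9.32, 9.1 and 9.3 on adult replicates 1 to 3. It was 4.74 to 5.44 in the embryo, with 13 of the 14 called lower in the embryo. Endothelium means were 4.99, 5.02 and 4.89 on the same adult arrays. Those of osteoclasts (6.08, 6.37 and 6.31) and of neurons and glia (5.41, 5.65 and 5.96) were lowest on adult replicate 1. Between the dental groups, 8 of 12 osteoblast and odontoblast markers and 5 of 13 mesenchyme markers were called lower in the embryo, and none of either list higher. Leaving out 1 array at a time gave 6 to 9 and 3 to 6. The pluripotency markers averaged 12.2 to 12.26 in mESC and 4.57 to 5.04 in the dental groups. Fam20c is itself expressed in bone and dentin. The part of these other cells in the differences between the dental groups was not tested, for any of the 8 genes or for the genes of the other lists. Calb1, Fam20a and Ltbp3 were called lower in the embryo whichever 1 array was left out, but the osteoblast, mesenchyme and macrophage means were higher on every adult array than on every embryo array.

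**Figure D4:**
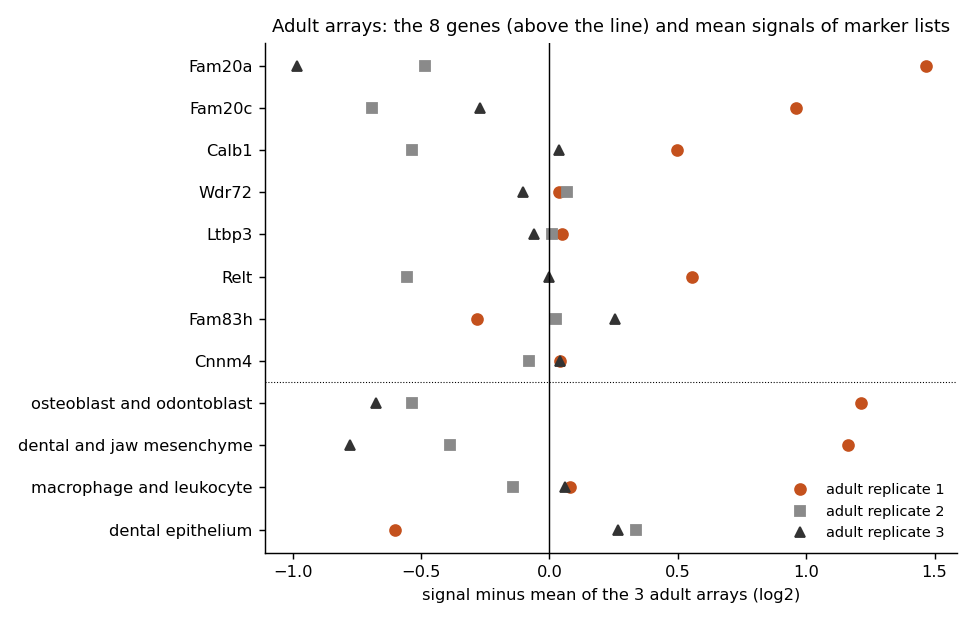
Log2 signal of each adult array minus the mean of the 3 adult arrays, for the 8 genes above the dotted line and for the mean signals of 4 marker lists below it. Circles are adult replicate 1, squares replicate 2 and triangles replicate 3. Replicate 1 lies to the right for Fam20a, Fam20c and the osteoblast and mesenchyme lists and to the left for the dental epithelium list.

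Of 23 other amelogenesis imperfecta genes, 11 were called lower in the embryo than in the adult and none higher, against 2.83% of all clusters called lower. Their median difference was -1.24, and -0.95 with again 11 called lower when adult replicate 1 was left out. Among the 11 were the matrix genes Amelx, Ambn and Enam, given above, and Mmp20, the protease of secretory-stage enamel (-9.68 ± 0.4, limma adjusted p = 1.29e-05). Mmp20 read 4.08 to 4.26 in the embryo, below the negative-control median, so that its difference can understate the change. Against mESC, 4 of the 23 were called higher in the embryo, where 4.9% of all clusters were, and 12 in the adult, where 6.87% were, and none was called lower in either. The 10 secretory-pathway kinases had 2 called higher than mESC in the embryo and 4 in the adult, and none lower. The 17 LTBP and TGF-beta genes had 7 higher and 2 lower in the embryo, and 12 higher and none lower in the adult. For these 17, leaving out 1 array at a time gave 5 to 7 higher and 1 to 4 lower in the embryo. In the adult it gave 12 to 13 higher and 0 to 1 lower.

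**Figure D5:**
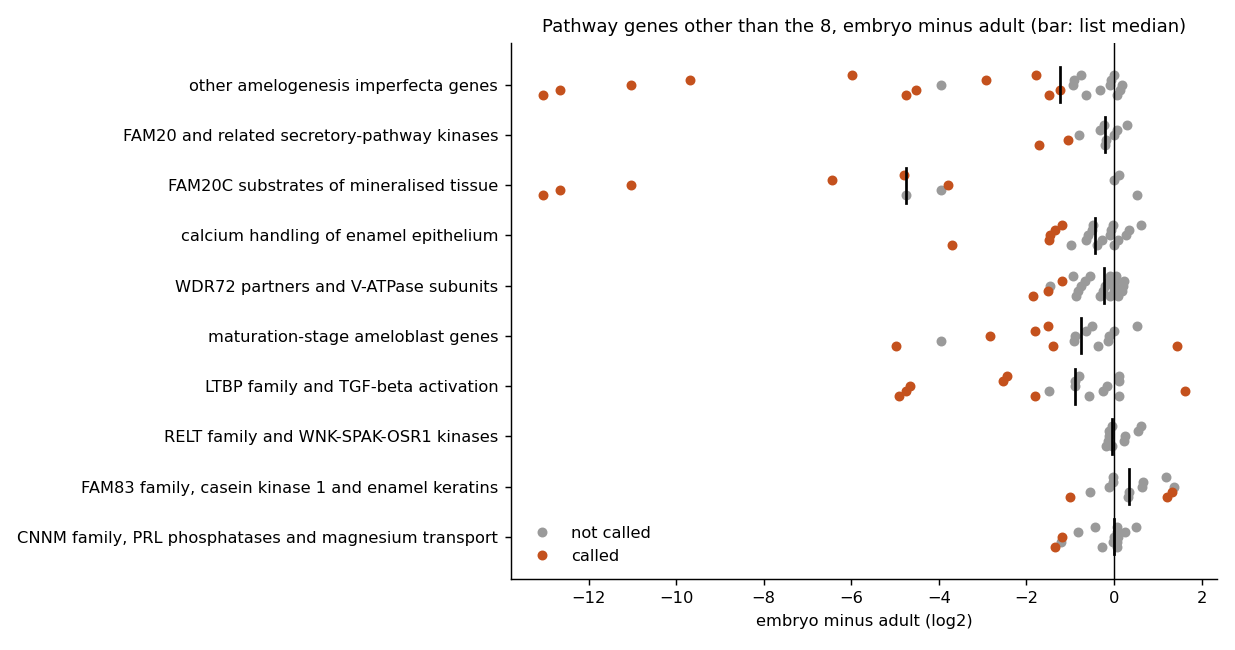
Embryo minus adult log2 difference of the measured genes in 10 pathway lists, the 8 genes left out, with 1 point per gene. Orange points were called, grey points were not, and the black bar is the list median, which ran from -4.76 for FAM20C substrates to 0.35 for the FAM83, casein kinase 1 and keratin list.

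Over the 9 arrays, the highest Pearson r between any 2 of the 8 genes was 0.983, for Fam20c and Relt. It was 0.955 for Fam20a and Calb1, 0.933 for Calb1 and Ltbp3, 0.913 for Fam83h and Cnnm4, and 0.909 for Ltbp3 with Relt and with Fam20c. These describe 9 arrays of 3 groups and share the group differences. Among 18723 named genes, those whose centred profiles lay closest to Calb1 by Euclidean distance were Mmp20 (distance 1.32, r = 0.998), Mmp13 (1.73, 0.995) and Chst1 (3.14, 0.994). Mmp13 averaged 5.1 in mESC, 4.48 in the embryo and 15.73 in the adult. Fam20a lay closest to C1rb (0.83), Ndnf (0.91) and Adamts2 (0.92), and Fam20c to G0s2 (0.58), Tmem108 (0.59) and Atp2b1 (0.65). Ltbp3 lay closest to Tulp2 (0.77), Nfic (0.79) and Matn4 (0.86). Nfic encodes a transcription factor of tooth root formation, and averaged 5.93 in mESC, 7.02 in the embryo and 8.95 in the adult. For Relt the closest were Galc (0.49), P4ha2 (0.5) and Rab43 (0.53), for Fam83h Ypel5 (0.23), Zc3h12c (0.33) and Rgp1 (0.33), and for Cnnm4 Gucd1 (0.2), Sh3bp2 (0.22) and Pgap2 (0.23). The closest to Wdr72, Prss47, Abi3 and Cyp2j8, averaged 3.59 to 4.04 and so lay below the negative-control median as well.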

How the data were processed

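For each of the 9 arrays the authors deposited log2 signals of transcript clusters, and in separate tables group means, signed linear fold changes (scores below 0 where the first group is lower), p-values of an analysis of variance and standard deviations, per the file headers. RMA, Transcriptome Analysis Console and Affymetrix Expression Console are named per the submitters' processing notes. Since RMA sets all arrays to 1 distribution, a shift common to most genes is lost. Groups and replicate numbers came from sample titles. The value table held 65956 clusters and 6732 control probe sets, and the 39601 clusters with at least 1 symbol were tested without a filter on signal. Of these, 3042 carried several symbols and were left unnamed, and 1420 symbols were updated. Differences were tested with limma 3.58.1 (lmFit and eBayes, R 4.3.3, data.table (1.17.8)) over 3 group means with 6 residual degrees of freedom, and the script was tested on simulated data. Python 3.11.15, pandas 2.3.3 and matplotlib 3.10.9 were used for tables and figures.

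The 8 genes, the gene lists and the tests were chosen with earlier results of these data known. Named were the 8 genes, their family members, up to 4 called genes of each list by size of the embryo minus adult difference (all called where 5 or fewer), Sox2, and the 3 genes closest to each of the 8. Column names of another deposited summary with identical log2 signals hold a digit string read as a day. What was done on that day is not stated. The first day held 2 adult and 1 embryo array and the second the rest, all 3 mESC arrays included. These columns were not matched to samples, although all 9 held values identical to those of a column of the value table. In the summary, 2 embryo columns share a name with different digit strings, although the sample titles name biological replicates. Whether these 2 held separate pools of cells is not stated. P-values that use the embryo spread may therefore rest on fewer independent samples. Replicate numbers were not used to pair the samples in the main fit. Correlations of deviations between arrays of different groups ran from -0.08 to 0.154 for same-numbered arrays. They ran from -0.126 to 0.113 for the others, and so few arrays cannot settle whether the numbers pair samples. Alternatives covered normalisation, filters, blocks, days, array weights, variance trend and each array left out. Leaving out adult replicate 1 for the lists and averaging the embryo columns of 1 name were chosen after the data were seen.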

Additional observations from a re-analysis of the deposited data

How the results depend on the processing

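Over all alternatives, the embryo minus adult difference stayed between -10.7 and -10.18 for Calb1, between -4.66 and -3.08 for Fam20a and between -2.5 and -2.1 for Ltbp3. Within the first day, with 1 embryo and 2 adult arrays, limma called 0 clusters against 2542 in all arrays (6112 at an unadjusted p under 0.05), and the differences of Calb1 (-10.3), Fam20a (-4.66), Ltbp3 (-2.13) and Fam20c (-1.38) lost their calls. Fewer samples entered that fit. Within the second day 1529 clusters were called. Leaving out 1 array at a time gave 2087 to 2690 calls between the dental groups, 3924 to 4445 for embryo against mESC and 6568 to 6889 for adult against mESC. Fam20c lost its embryo minus adult call in 15 of 22 alternatives, with limma adjusted p of 0.0598 over all transcript clusters, 0.126 in a fit of the 2 groups compared and 0.0683 with the replicate block, all at -1.37. It also lost it at -1.27 with the day as a block and at -1.38 with the embryo columns of 1 name averaged. Arrays left out in turn gave -1.72 to -0.89 for Fam20c and -1.11 to -0.56 for Relt, which was called without adult replicate 2. The replicate block changed no other call of the 8 genes. The sign of small differences turned: Fam83h (embryo minus adult) read 0.04 with median centring, 0.32 within the first day and -0.17 to 0.11 with arrays left out, and Cnnm4 read -0.06 within the second day and -0.06 in the authors' deposited table, and -0.02 to 0.12 with arrays left out. Wdr72 read 0.03 for embryo minus mESC with median centring and -0.01 for adult minus mESC within the second day. Fam83h against mESC in the adult was called within the second day at 1.12, and read 0.73 to 1.0 with arrays left out. The authors' deposited table gave, with adjusted p above 0.05, -3.61 for Fam20a and -1.18 for Fam20c (embryo minus adult), 1.31 for Ltbp3 (embryo minus mESC), and 3.13 for Fam20a, 2.03 for Fam20c and 1.51 for Relt (adult minus mESC). Without clusters whose highest group mean was under 8.55, 8821 clusters were tested instead of 39601. The counts were 1755 between the dental groups, against 2542 in the main fit. They were 2719 for embryo against mESC, against 4351, and 4285 for adult against mESC, against 6793. The counts fell since fewer clusters were tested, but the share of tested clusters that was called was larger in each comparison. Only Calb1 and Ltbp3 of the 8 genes were left. Choosing among clusters of a gene was not run, since each gene had 1. Apart from the constructions named, the cause of these changes was not tested. Signals below the negative-control median limit what can be said of Wdr72 in every group and of Fam20a and Calb1 outside the adult. All group means of Fam20c, Fam83h, Cnnm4 and Relt, the adult mean of Fam20a, and the mESC and embryo means of Ltbp3 also lay under 8.55. From 67.0% (Fam20c in mESC) to 90.7% (Relt in the adult) of negative controls lay below these means, so their detection is uncertain.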

Other observations

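Some enamel and dentin genes that did not pass the test, or were not among the widest of their list, read far higher on adult replicate 1 than on the other adult arrays. They were chosen after their values were seen. Amtn, the gene of amelotin, a protein of maturation-stage enamel, read 14.01, 4.39 and 5.64 on adult replicates 1 to 3. Dmp1, a dentin and bone matrix gene, read 12.65, 5.92 and 6.63. Acp4, a phosphatase gene of human enamel disease, read 11.77, 8.77 and 9.05, and Slc13a5, a citrate transporter gene with enamel defects when lost, read 11.02, 8.42 and 7.65. Amtn (limma adjusted p = 0.315) and Dmp1 (0.082) were not called between the dental groups, while Acp4 (-5.99, 0.00107) and Slc13a5 (-4.51, 0.0052) were called lower in the embryo. Klk4, the protease of maturation-stage enamel, read 5.99, 3.87 and 4.04, so that adult replicate 1 alone lay above the negative-control median of 4.81.

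Against mESC, family members of the 8 genes gave wider differences than the 8 themselves in some cases. Fam83b, with means of 6.48 ± 0.5 in mESC, 10.25 ± 0.69 in the embryo and 9.07 ± 0.48 in the adult, was higher by 3.77 ± 0.41 in the embryo (limma adjusted p = 0.000362) and by 2.59 ± 0.41 in the adult (0.0016). Cnnm2, with a mean of 9.0 ± 0.22 in mESC, was lower in the embryo by a difference of -2.36 ± 0.38 (limma adjusted p = 0.00279). In the adult it read -1.15 ± 0.38 (0.0499), a call lost when any 1 array other than adult replicate 1 and embryo replicate 1 was left out. Markers of osteoclasts, endothelium and neurons or glia gave few calls between the dental groups: 1 of 10 higher, 2 of 10 lower and 1 of 10 lower in the embryo, with mean log2 signals of 4.29 to 6.83 over the dental arrays. With 1 array left out, the endothelium count fell to 1 in 7 of 9 fits, in which Eng lost its call, and the neuron and glia count was 2 without adult replicate 1. Of the 12 dental epithelium markers, 3 were called higher and 1 lower in the embryo. Leaving out 1 array at a time gave 1 to 4 higher and 0 to 1 lower. The single osteoclast call was lost in 5 of these 9 fits.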
